A study of Mus musculus with 6 samples.

Results

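The genes described here encode the nuclear subunits of respiratory complex III, cytochrome c, respiratory complex IV and mitochondrial ATP synthase, measured in the fat of NOD mice, in which diabetes arises spontaneously through autoimmunity. Members were taken by symbol from the array's annotation: symbols that begin with Uqcr or Atp5, or with Cox followed by 4, 5, 6, 7 or 8, and Cyc1 and Cycs. The rule found 44 genes of the 18193 named on the array, read by 87 probe sets, and each gene was represented by its probe set of highest mean signal. Complex III had 9 members, cytochrome c 1, complex IV 17 and ATP synthase 17. Of the 44 genes 41 had a mean signal above the filter used for testing; Cox7a1, Cox7b2 and Cox7c did not. The 6 Affymetrix arrays came from 3 groups of 2. The first was normoglycemic female NOD mice of 10 weeks. The second was NOD mice with blood glucose above 300 mg/dl for 3 days in a row, called diabetic. The third was NOD mice treated with AAT (alpha-1-antitrypsin, a serum protease inhibitor) whose diabetes had stably reverted and that no longer depended on insulin. Age and sex are labelled in the normoglycemic group only, and the fat depot, dose and duration of treatment are not stated. Since nothing in the labels tells if a group's arrays are different animals, the tests measure the spread between these arrays, which may be technical.

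Complex III passes electrons from ubiquinol to cytochrome c, a small soluble carrier between the mitochondrial membranes. Complex IV (cytochrome c oxidase) passes them on to oxygen. Both pump protons, and ATP synthase lets the protons flow back through a ring of c subunits in the membrane (Fo), whose turning drives ATP formation in the catalytic head (F1); a peripheral stalk holds the head still. In white fat this machinery supplies ATP and supports fatty acid handling, and in brown fat it runs with the uncoupling protein Ucp1 to give heat.

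Promoter stretches are shown for the 3 genes of the c subunit, which encode the same mature protein from separate loci and differed in their values below, and for Atp5c1 and Cox8a, the genes of lowest difference in diabetic fat within ATP synthase and complex IV. Each stretch runs from 120 bases before to 30 bases after a RefSeq start (GRCm38.p6), 5′ to 3′ on the gene's strand. Capitals mark matches to 3 motifs, searched on both strands in 250 bases before to 50 after the start: the NRF1 motif, given here by its name alone, CCGGAAGT for GABPA and other ETS factors, and TCAAGGTCA for estrogen-related receptors. Atp5g1 lies at chr11:96075602-96075751 on the minus strand, Atp5g2 at chr15:102671018-102671167 minus, Atp5g3 at chr2:73911297-73911446 minus, Atp5c1 at chr2:10080403-10080552 minus and Cox8a at chr19:7217587-7217736 minus.
Atp5g1: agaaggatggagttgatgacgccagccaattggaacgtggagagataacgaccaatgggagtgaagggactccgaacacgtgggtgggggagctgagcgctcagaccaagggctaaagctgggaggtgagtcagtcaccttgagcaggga
Atp5g2: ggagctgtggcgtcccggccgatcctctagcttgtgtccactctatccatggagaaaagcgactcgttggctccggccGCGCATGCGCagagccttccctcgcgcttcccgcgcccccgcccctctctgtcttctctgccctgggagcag
Atp5g3: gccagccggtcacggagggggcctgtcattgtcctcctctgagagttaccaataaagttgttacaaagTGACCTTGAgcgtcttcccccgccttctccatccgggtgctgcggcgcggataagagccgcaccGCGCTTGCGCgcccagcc
Atp5c1: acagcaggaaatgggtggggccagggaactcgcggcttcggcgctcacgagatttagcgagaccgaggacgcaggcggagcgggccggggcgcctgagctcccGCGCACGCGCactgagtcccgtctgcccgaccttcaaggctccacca
Cox8a: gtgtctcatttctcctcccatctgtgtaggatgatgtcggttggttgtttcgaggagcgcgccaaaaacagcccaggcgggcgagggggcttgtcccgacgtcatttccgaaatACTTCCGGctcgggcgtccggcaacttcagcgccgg
The Atp5g2 stretch holds an NRF1 match 42 bases before the start, and that of Atp5c1 one 17 bases before the start; Atp5c1 has a second annotated start, whose window held no match. The Atp5g3 stretch holds both an NRF1 match, 12 bases after the start, and an estrogen-related receptor match, 52 bases before it. The Cox8a stretch holds an ETS match that begins 6 bases before the start, and a second follows it 31 bases after the start, outside the printed stretch. No match was found in the Atp5g1 window. RefSeq promoters were at hand for 33 of the 44 members. These include Cox7a1, Cox7b2 and Cox7c, which were below the filter and held no match, while the shares of genes are over tested genes only. The NRF1 motif was found in 8 of the 33, 24.2%, against 10.5% of the 10502 tested genes with a promoter. The ETS motif was found in 4 members, 12.1% against 8.07% of genes, and the estrogen-related receptor motif in Atp5g3 alone, against 0.333%. The 8 members with an NRF1 match were Uqcrc1, Cox6a1, Atp5c1, Atp5h, Atp5o, Atp5g2, Atp5g3 and Atp5k, and they held both signs between diabetic and normoglycemic fat.

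Values are MAS5 signals, a summary per probe set that the authors scaled to the same trimmed mean on every array. Differences are of log2(signal + 74), tested for 13058 genes with limma in 1 fit over the 6 arrays, and are given ± SE with n = 2 arrays per group. An adjusted p (Benjamini-Hochberg over all genes) under 0.05 was the threshold. Signals of different genes are not compared, since each probe set has its own brightness. Summed signals of a list are compared between arrays only, and follow its brightest probe sets. The arrays differed in the beta-actin control's 3'/5' signal ratio, a measure of RNA integrity and of how far transcripts were copied: it was 3.63 and 4.3 on the normoglycemic arrays, 15.2 and 15.5 on the diabetic arrays, and 9.08 and 5.87 on AAT-treated 1 and 2. The hybridisation controls had a mean signal of 114483 on normoglycemic 1, 74823 on AAT-treated 2 and 21242 to 41701 on the other arrays. Their part in the members' values was not tested. Across genes normoglycemic 1 correlated with normoglycemic 2 at 0.837 and with AAT-treated 2 at 0.839. Normoglycemic 2 correlated more with AAT-treated 1 (0.931). Normoglycemic 1 and AAT-treated 2 are therefore left out in turn beside the results that rest on them. Of 12 adipocyte genes listed 10 were on the array, and all 10 had a mean signal above the filter, with summed signals of 247647 to 550607. Fabp4 alone had 339475 of the 550607, on normoglycemic 1. Adipoq, the adiponectin gene, had 15690 to 48984, while Lep, the leptin gene, ranged from 18.7 on diabetic 1 to 9408 on diabetic 2. In whole tissue fewer cells of a type and less RNA per cell cannot be told apart.

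Between diabetic and normoglycemic fat the members went both ways, also within ATP synthase. The catalytic F1 subunit gene Atp5b, the rotor gene Atp5c1 and the c subunit genes Atp5g1 and Atp5g2 were lower in diabetic fat, as was Cox8a of complex IV, by values from −1.22 to −0.95. The F1 genes Atp5a1 and Atp5d and the complex IV genes Cox5a and Cox6b1 were higher at their chosen probe sets, but Atp5a1 was at −0.21 with the mean over its probe sets, 2 of which opposed the chosen one. In all 24 of 41 members were lower and 17 higher, with a median difference of −0.13, beside 53.6% of all genes lower, 46.4% higher and a median over all genes of −0.06. The median of the members was −0.27, with 29 lower and 12 higher, under the mean over probe sets, −0.05 with quantile normalization, −0.23 without diabetic 2, and −0.08 without diabetic 1 or normoglycemic 2. The groups did not overlap for 17 members that were lower and 10 that were higher, where 24.5% and 20.2% of all genes did so. By limma 0 members and 0 of all genes (0%) passed the adjusted threshold, and the smallest adjusted p of a member was 0.482. At an unadjusted p under 0.05 there were 5 lower members (Atp5b, Atp5c1, Atp5g1, Atp5g2 and Cox8a) and 0 higher ones, against 4.62% and 5.27% of all genes. The 5 became 0 without normoglycemic 1 and 1 without diabetic 1. Macrophage markers were higher in diabetic fat for 10 of 11 genes above the filter (median 1.03). The signals of all 12 listed summed to 18059 and 32637 (diabetic), 9596 and 9110 (normoglycemic) and 19269 and 13485 (AAT-treated), and their part in the members' values was not tested.

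AAT-treated fat lay below diabetic fat for 5 of 9 genes of complex III, 10 of 14 of complex IV and 10 of 17 of ATP synthase. Of 41 members 26 were lower and 15 higher, with a median of −0.23, against 48.8% of all genes lower, 51.2% higher and a median of 0.01. The median was −0.53 in complex III, −0.33 in complex IV and −0.16 in ATP synthase. The groups did not overlap for 13 lower and 7 higher members, beside 15.9% and 17.9% of all genes. By limma 0 members passed the adjusted threshold and 0% of all genes. At an unadjusted p under 0.05 there were 1 lower member, Atp5d, and 1 higher, Atp5g2, against 1.83% and 2.95% of genes. The other kept probe sets of Atp5d and Atp5g2 were at −0.12 and −0.49, the latter dim. The median of the members was −0.10 without AAT-treated 2, −0.14 without diabetic 2 and −0.15 with the mean over probe sets, and −0.33 without AAT-treated 1, where the counts at an unadjusted p under 0.05 were 4 lower and 3 higher. Both counts were 0 without AAT-treated 2, without normoglycemic 1 and without normoglycemic 2. Smooth muscle markers were higher in AAT-treated than in diabetic fat for 11 of 11 genes (median 2.78, 11 at an unadjusted p under 0.05), adipocyte markers were lower for 6 of 10 (median −0.46), and the beta-actin ratio was 9.08 and 5.87 against 15.2 and 15.5. Their part in the members' values was not tested.

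AAT-treated fat was lower than normoglycemic fat in 38 of 41 members and higher in 3, beside 52% and 48% of all genes. The differences were small, with a median of −0.26 (all genes −0.03), and the SE of a member was 0.31 to 0.63. The exceptions were Uqcrc1 at 0.08, Cox7a2l at 0.41 and Atp5l at 0.01. Both AAT-treated arrays lay below both normoglycemic arrays for 20 members and above them for 2, while 16.1% and 16% of all genes did so. The medians were −0.31 in complex III, −0.22 in complex IV and −0.26 in ATP synthase. By limma 0 members and 0% of genes passed the adjusted threshold. At an unadjusted p under 0.05 there were 1 lower member, Cox8b, and 0 higher ones, against 1.72% and 3.43% of genes. That count was 0 without normoglycemic 1 and 2 without either AAT-treated array. Without AAT-treated 2 the count of lower members was 28 of 41, without AAT-treated 1 it was 34, and without normoglycemic 1 it was 35. The median stayed between −0.34 and −0.23 with any array left out. Of the adipocyte markers 10 of 10 above the filter were lower in AAT-treated than in normoglycemic fat, with a median of −0.48, and Adipoq at −1.01. Smooth muscle markers were higher for 11 of 11 genes, and their signals summed to 76366 and 120538 (AAT-treated), 10512 and 39140 (normoglycemic) and 19287 and 14655 (diabetic). Macrophage markers were higher than in normoglycemic fat for 9 of 11 genes above the filter and lower for 2 (median 0.91). The part of these cell types in the members' values was not tested.

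**Figure D1:**
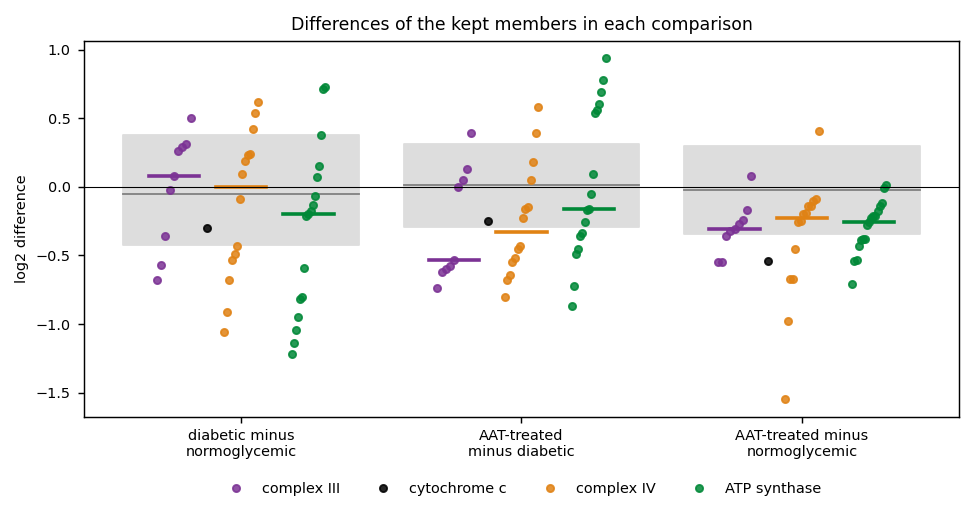
Log2 differences (vertical axis) of the 41 members above the signal filter in each of the 3 comparisons, 1 point per gene, coloured by complex; coloured bars are medians of a complex, the grey band holds the middle 50% of all 13058 genes and the grey line their median. Members spread from −1.22 to 0.73 between diabetic and normoglycemic fat, and 38 of 41 lie below 0 between AAT-treated and normoglycemic fat.

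The levels by array show which arrays carried these values. Normoglycemic 1 had the highest level of 17 of the 41 members and the lowest of 0; of all genes 29.2% were highest and 23% lowest on it. AAT-treated 2 had the lowest level of 20 members, against 14.3% of all genes, and the highest of 3. The mean deviation of the members from their own mean was 0.25 on normoglycemic 1, 0.09 on normoglycemic 2, −0.07 and 0.04 on diabetic 1 and 2, and −0.12 and −0.19 on AAT-treated 1 and 2. The SD of this mean level between arrays of a group was 0.08 (pooled). In complex IV the low level on AAT-treated 2 (−0.37) was not matched by AAT-treated 1 (−0.05), while in complex III both were low (−0.20 and −0.19).

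**Figure D2:**
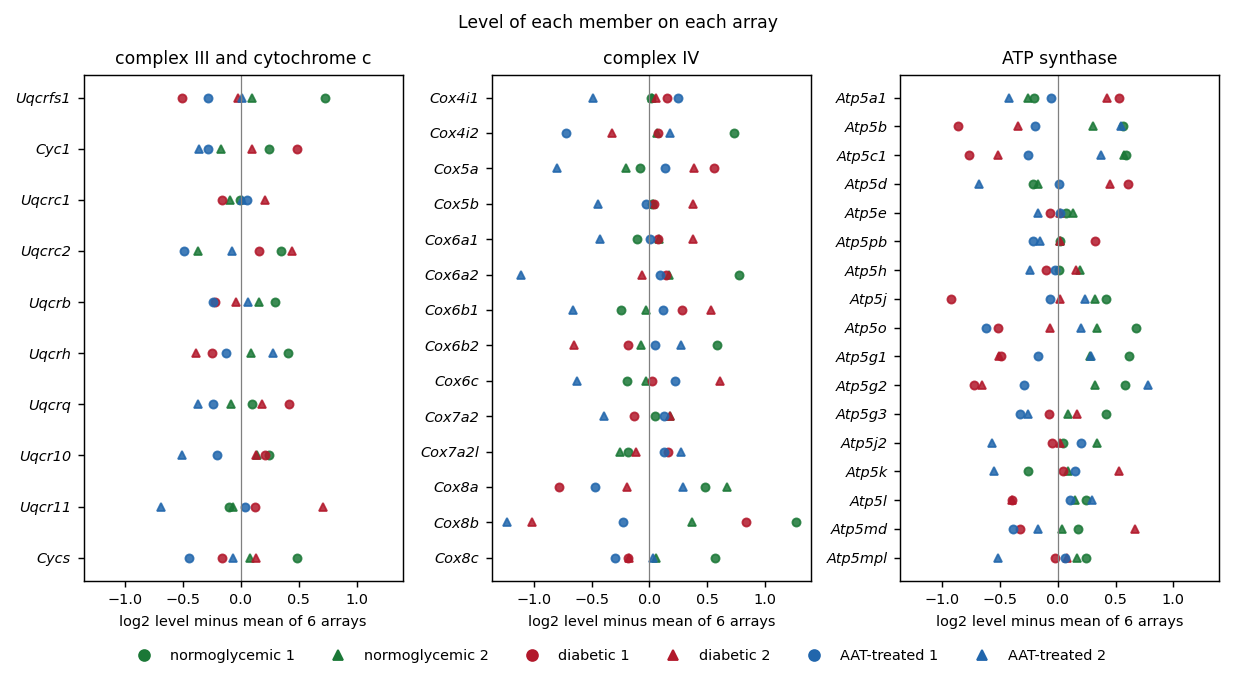
Log2 level of each of the 41 members on each array minus the gene's mean over the 6 arrays (horizontal axis), in 3 panels by complex; colours are groups, circles the first and triangles the second array of a group. Normoglycemic 1 is the rightmost point for 17 members and AAT-treated 2 the leftmost for 20.

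In complex III the electron-carrying subunits were the Rieske iron-sulfur protein Uqcrfs1 and cytochrome c1, Cyc1. Uqcrfs1 signals were 5679 and 3624 (normoglycemic), 2365 and 3335 (diabetic) and 2773 and 3410 (AAT-treated). Both normoglycemic arrays lay above all others, with the lower of them close to the highest of the rest. The difference was −0.68 ± 0.36 for diabetic and −0.55 ± 0.36 for AAT-treated against normoglycemic fat. Cyc1 had 7607 and 5695 (normoglycemic), 9051 and 6879 (diabetic) and 5251 and 4989 (AAT-treated). Here the AAT-treated arrays were the lowest, at −0.62 ± 0.34 from diabetic and −0.36 ± 0.34 from normoglycemic fat.

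Among the smaller subunits of complex III, Uqcr10 was lowest on both AAT-treated arrays, with 3986 and 3223, while the normoglycemic arrays had 5497 and 5098 and the diabetic arrays 5360 and 5059 (−0.53 ± 0.31 from diabetic, −0.55 ± 0.31 from normoglycemic). Uqcrq had 3921 and 3580 in AAT-treated, 6204 and 5278 in diabetic and 4956 and 4376 in normoglycemic fat, again with both AAT-treated arrays lowest (−0.60 ± 0.31 from diabetic). Uqcr11 had 7402 and 11136 in diabetic fat, above the normoglycemic 6325 and 6491 and the AAT-treated 6968 and 4186 (0.50 ± 0.39 from normoglycemic and −0.74 ± 0.39 for AAT-treated against diabetic). The hinge protein gene Uqcrh showed the reverse, with 7808 and 7090 in diabetic fat against 12388 and 9886 in normoglycemic and 8529 and 11272 in AAT-treated fat (−0.57 ± 0.35 and 0.39 ± 0.35). The core subunit gene Uqcrc1 had signals between 3817 and 4956 on all arrays, with a difference of 0.08 ± 0.31 between diabetic and normoglycemic fat. Both AAT-treated arrays lay below every other array for 6 of the 41 members, against 5.1% of all genes, and 3 of the 6 were the complex III genes Cyc1, Uqcrq and Uqcr10; the others were Cox5b, Atp5pb and Atp5g3.

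The carrier gene Cycs had 30309 and 22845 (normoglycemic), 19287 and 23773 (diabetic) and 15802 and 20603 (AAT-treated). Only the AAT-treated and normoglycemic arrays did not overlap, at −0.54 ± 0.39. The diabetic arrays lay on both sides of the lower normoglycemic one (−0.30 ± 0.39). For that comparison the 2 other kept probe sets of Cycs disagreed, at 0.54 and −0.58.

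In complex IV Cox5a, a subunit on the matrix side, had 24486 and 21653 in diabetic against 15644 and 14377 in normoglycemic and 18214 and 9516 in AAT-treated fat. The diabetic arrays were the highest, and the AAT-treated arrays lay on both sides of the normoglycemic ones (0.62 ± 0.42 and −0.80 ± 0.42). Cox6b1, which lies where complex IV forms dimers, had 20631 and 24510 in diabetic, 14273 and 16631 in normoglycemic, and 18346 and 10689 in AAT-treated fat (0.54 ± 0.40 and −0.68 ± 0.40). Its other kept probe set was at 0.08 and −0.17. For both genes AAT-treated 2 was the lowest of the 6 arrays. Of the 8 common subunit genes kept, 6 were higher in diabetic than in normoglycemic fat (median 0.21, with 46.4% of all genes higher), 7 were lower in AAT-treated than in diabetic fat (median −0.44) and 8 were lower in AAT-treated than in normoglycemic fat (median −0.19). The first count rests on the chosen probe sets: 3 of the 4 other kept probe sets of Cox5b had the opposite sign, down to −0.97, and the other ones of Cox6a1 and Cox6c were at −0.14 and −0.30.

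Cox8a, the common form of the small membrane subunit 8, had 9091 and 10382 (normoglycemic), 3742 and 5672 (diabetic) and 4643 and 7947 (AAT-treated). The normoglycemic arrays were above all others and the other groups overlapped. Its difference was −1.06 ± 0.39 for diabetic and −0.67 ± 0.39 for AAT-treated against normoglycemic fat. Cox7a2l, which is related to subunit 7A and ties complexes III and IV into supercomplexes, was highest on AAT-treated 2 with 7335. Its AAT-treated values of 6623 and 7335 lay above the normoglycemic 5340 and 5090 (0.41 ± 0.32). This holds for the chosen probe set, while the 2 other kept ones were at 0.12 and −0.03.

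Some complex IV subunits also have tissue-restricted forms. Cox8b, the form of subunit 8 known from heart, skeletal muscle and brown fat, had 1883 and 970 (normoglycemic), 1371 and 328 (diabetic) and 619 and 270 (AAT-treated). The AAT-treated arrays lay below the normoglycemic ones at −1.55 ± 0.63, the lowest difference of any member, and the diabetic arrays spread over both. The muscle form Cox6a2 had 400 and 237 (normoglycemic), 232 and 190 (diabetic) and 221 and 54.1 (AAT-treated) (−0.98 ± 0.55 against normoglycemic). Cox7a1, another muscle form, stayed below the filter at 15.9 to 149. Cox4i2, the second form of subunit 4, had 654 and 383, 386 and 275, and 191 and 420 in the same order of groups, and its groups overlapped in every comparison. Of 18 striated muscle genes 7 were above the filter, and the summed signal of all 18 was 9562 on AAT-treated 1 and between 2647 and 4856 on the other arrays. Of 10 brown fat markers on the array 6 were above the filter, with 3 higher and 3 lower in diabetic than in normoglycemic fat. In AAT-treated fat 4 were lower and 2 higher than in normoglycemic fat (median −0.37), beside 52% of all genes lower. Against diabetic fat 6 of 6 were lower (median −0.27), beside 48.8% of all genes. The signals of all 10 summed to 1686 to 3231, and the defining gene Ucp1 was below the filter at 4.7 to 124. Their part in the values of Cox8b was not tested.

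Cox6b2 and Cox8c, forms described in testis, passed the filter with 305 to 822 and 905 to 1709. Cox6b2 had 822 and 494 (normoglycemic), 451 and 305 (diabetic) and 542 and 647 (AAT-treated), with the diabetic arrays lowest (−0.68 ± 0.37 and 0.58 ± 0.37). Cox8c had 1709 and 1180, 984 and 990, and 905 and 1157 in that order, with both normoglycemic arrays above the others (−0.49 ± 0.33 for diabetic fat). Of 9 sperm and testis genes, which include the testis cytochrome c Cyct, 1 passed the filter (Prm1, 254 to 529). Cox7b2, another testis form, was at 13 to 172. Cox7c belongs to complex IV in every tissue, yet its best probe set gave 26.3 to 183 and was not tested.

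In ATP synthase the 5 genes of the catalytic head differed in sign between diabetic and normoglycemic fat. Atp5b, the catalytic beta subunit, had 20623 and 17238 (normoglycemic), 7603 and 10953 (diabetic) and 12122 and 20317 (AAT-treated). Both diabetic arrays were below every other array, and AAT-treated 2 lay within the normoglycemic range (−1.04 ± 0.41 and 0.78 ± 0.41). Atp5c1, the gamma subunit that turns inside the head, had 18177 and 17942 (normoglycemic), 7046 and 8396 (diabetic) and 10014 and 15583 (AAT-treated) (−1.22 ± 0.37 and 0.69 ± 0.37). The 3 groups did not overlap for Atp5c1, and its difference between diabetic and normoglycemic fat was the lowest of the members.

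Atp5a1, the alpha subunit, showed the reverse at its chosen probe set, with 15059 and 14040 in diabetic against 9027 and 8710 in normoglycemic and 9986 and 7764 in AAT-treated fat (0.71 ± 0.34 and −0.72 ± 0.34). Atp5d, the delta subunit, had 19659 and 17592 in diabetic, 11039 and 11379 in normoglycemic, and 12930 and 7964 in AAT-treated fat (0.73 ± 0.38 and −0.87 ± 0.38). The other kept probe set of Atp5d was at 0.15 and −0.12. At the chosen probe sets of Atp5a1 and Atp5d the diabetic arrays were the highest. The AAT-treated arrays lay on both sides of the normoglycemic ones there. Atp5e, the epsilon subunit, stayed between 6496 and 8047.

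The genes of the c ring differed among themselves. Atp5g1 had 1988 and 1558 (normoglycemic), 883 and 871 (diabetic) and 1122 and 1567 (AAT-treated) (−0.95 ± 0.32 and 0.56 ± 0.32). Atp5g2 had 5577 and 4664, 2217 and 2323, and 3018 and 6419 in that order (−1.14 ± 0.40 and 0.94 ± 0.40). For both the diabetic arrays lay below every other array. Atp5g3 had 38707 and 30843 (normoglycemic), 27571 and 32652 (diabetic) and 23095 and 24243 (AAT-treated). Its diabetic arrays overlapped the normoglycemic ones (−0.20 ± 0.39, and 0.08 with quantile normalization), and its AAT-treated arrays were the lowest (−0.34 ± 0.39 from diabetic and −0.54 ± 0.39 from normoglycemic). Whether the 3 genes differed from each other was not tested.

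Of the peripheral stalk, Atp5o (OSCP, which links stalk and head) had 7642 and 6038 (normoglycemic), 3299 and 4545 (diabetic) and 3074 and 5498 (AAT-treated). It differed from normoglycemic fat by −0.80 ± 0.39 in diabetic and −0.71 ± 0.39 in AAT-treated fat. Its other kept probe set was at 0.11 and −0.41 in the same order, and the mean over its probe sets at −0.35 for diabetic fat. Atp5j had 2885 and 5615 in diabetic against 7443 and 6931 in normoglycemic fat (−0.82 ± 0.39). Atp5l, a membrane subunit at the interface of the ATP synthase dimer, had 5030 and 5019 in diabetic, 7863 and 7390 in normoglycemic, and 7172 and 8166 in AAT-treated fat (−0.59 ± 0.31 and 0.60 ± 0.31), with both diabetic arrays lowest. Over all members both diabetic arrays lay below every other array for 7 genes (Uqcrh, Cox6b2, Atp5b, Atp5c1, Atp5g1, Atp5g2 and Atp5l), against 9.57% of all genes. They lay above every other array for 7 others (Uqcrq, Uqcr11, Cox5a, Cox5b, Cox6b1, Atp5a1 and Atp5d), against 8.36%. Both normoglycemic arrays lay above every other array for 10 members (Uqcrfs1, Uqcrb, Cox6a2, Cox8a, Cox8c, Atp5c1, Atp5e, Atp5j, Atp5o and Atp5mpl), against 8.64%.

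Probe sets of the same gene often disagreed in the comparisons with diabetic fat. Of the 41 kept members 24 had at least 1 further probe set above the filter, 33 in all. Between diabetic and normoglycemic fat 15 of the 33 had the opposite sign from the chosen probe set, in 11 genes, and between AAT-treated and diabetic fat 13 of 33, in 13 genes. Between AAT-treated and normoglycemic fat 3 of 33 did, in 3 genes (Uqcrh, Cox7a2l and Atp5d). Atp5a1 was among the 11 genes that disagreed between diabetic and normoglycemic fat. Its second probe set had 8724 and 5640 (normoglycemic), 3233 and 3713 (diabetic) and 4005 and 7046 (AAT-treated). That was a difference of −1.0, where the chosen one gave 0.71. Another one was at −0.33. Uqcrc2, a core subunit of complex III, gave 0.31 and −0.85, and Atp5pb, the b subunit of the stalk, 0.15 and −0.96. Atp5h gave −0.07 and −1.04, and 0.09 at the chosen one with quantile normalization. Atp5c1 had a dim second probe set (255 to 409) at −0.10, and that of Atp5g2 (94.4 to 233) was at 0.37. Cox5a and Cox8a kept their sign in every kept probe set, at 0.05 to 0.54 and −0.76 beside the chosen 0.62 and −1.06. With the mean over all kept probe sets of a gene, the median of the members was −0.27 between diabetic and normoglycemic fat. The chosen probe set of 10 members has a name ending in _s_at or _x_at, which marks probes that can match more than 1 transcript. Processed pseudogenes are known for many of these genes, so their signals are uncertain in that respect.

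**Figure D3:**
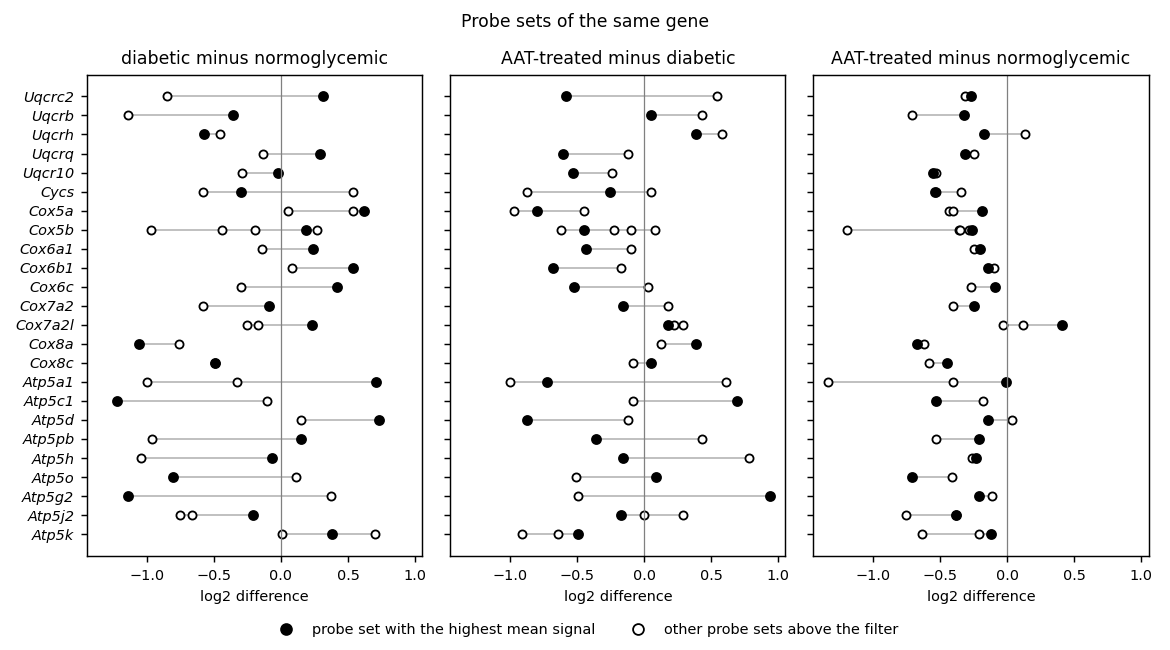
Log2 differences (horizontal axis) of every probe set above the filter for the 24 members with more than 1, in 3 panels by comparison; filled points are the probe set of highest mean signal, open points the others. Open points lie across 0 from the filled one for 15 of 33 in the first panel and 3 of 33 in the last.

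The array order of part of the members ran with the beta-actin ratio. The 3 arrays of lowest ratio were both normoglycemic arrays and AAT-treated 2, and the 3 of highest ratio were both diabetic arrays and AAT-treated 1. For 12 of 41 members all 3 arrays of high ratio lay below the other 3, beside 15.6% of all genes. For 7 they lay above, beside 10.8%. Among the 74 kept probe sets of the members they lay below for 21 (28.4%) and above for 8 (10.8%). Of all kept probe sets on the array 16.1% and 10.9% did so. Among the 33 kept probe sets that were not chosen, the counts were 9 and 1. The count of 7 thus rests on the chosen probe sets. The 12 held all 5 members lower in diabetic fat at an unadjusted p under 0.05, with Uqcrfs1, Uqcrb, Uqcrh, Cox8c, Atp5j, Atp5o and Atp5l. The 7 were Uqcr11, Cox4i1, Cox5a, Cox6b1, Cox6c, Atp5a1 and Atp5d. In ATP synthase 7 of 17 members were of the first kind. The part of the ratio in the diabetic differences was not tested.

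**Figure D4:**
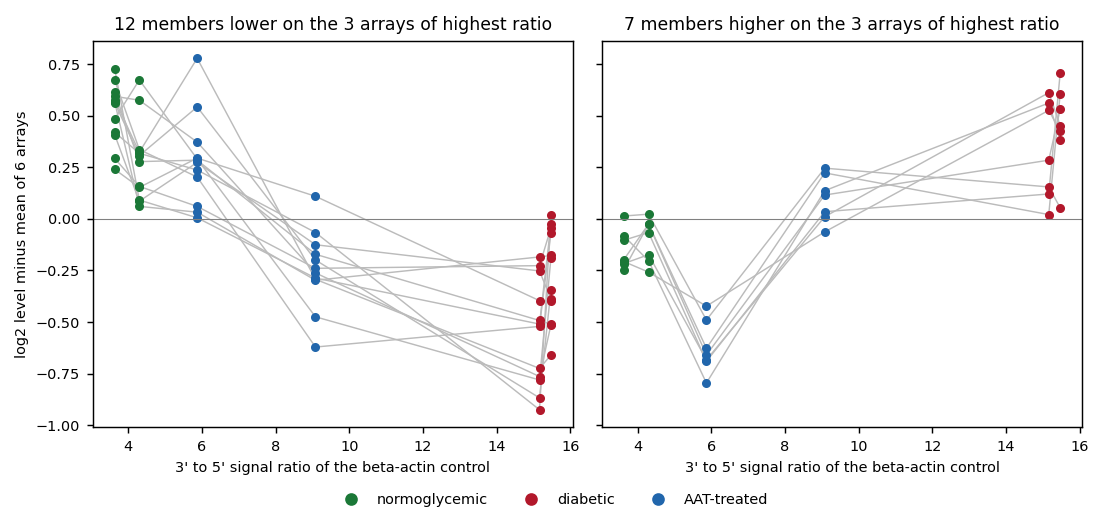
Log2 level minus the gene's mean over 6 arrays (vertical axis) against the 3' to 5' ratio of the beta-actin control on each array (horizontal axis), for the members selected because all 3 arrays of highest ratio lay below (left, 12 genes) or above (right, 7 genes) the other 3; a line joins the arrays of a gene and colours are groups. On the right AAT-treated 2, at a ratio of 5.87, is the lowest array of every gene shown.

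Other genes of the same pathway were counted from lists. Of 38 kept subunit genes of complexes I and II, 21 were lower and 17 higher in diabetic than in normoglycemic fat, and 35 of 38 were lower in AAT-treated than in normoglycemic fat (median −0.30, with 52% of all genes lower), by limma with 0 past the adjusted threshold and 0 at an unadjusted p under 0.05 in the latter. Ndufa5 of complex I had 4338 and 4804 (normoglycemic), 12321 and 12100 (diabetic) and 7139 and 3050 (AAT-treated) (1.40 ± 0.43), and Ndufs4 differed by −1.07 ± 0.37. Ndufb9 was at −1.12 ± 0.44 for AAT-treated against diabetic fat, and Ndufa9 and Ndufa3 at −0.60 ± 0.33 and −0.63 ± 0.39 for AAT-treated against normoglycemic fat. The only mitochondrially encoded gene on the array's list, ND5, had 251734 and 119896 (normoglycemic), 61432 and 39558 (diabetic) and 43734 and 211029 (AAT-treated). It too was lower on the 3 arrays of high beta-actin ratio (−1.82 ± 0.78 for diabetic fat).

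Assembly factors of complexes III, IV and ATP synthase numbered 29 above the filter. In diabetic fat 17 were lower and 12 higher than in normoglycemic fat, beside 53.6% of all genes lower. At an unadjusted p under 0.05 there were 6 lower and 0 higher, beside 4.62% and 5.27% of all genes. Cmc1, a complex IV assembly factor, had 2936 and 2676 (normoglycemic), 857 and 1013 (diabetic) and 1111 and 1578 (AAT-treated), with no overlap between groups (−1.52 ± 0.32 for diabetic and −1.04 ± 0.32 for AAT-treated against normoglycemic fat, adjusted p = 0.459 and 0.891 by limma). Oxa1l, which inserts proteins into the inner membrane, differed by −1.44 ± 0.43 in diabetic fat, and Cox18, which inserts a part of Cox2, by −0.93 ± 0.33 in AAT-treated against normoglycemic fat. Of AAT-treated against diabetic fat the leading factors were Cmc2 (−0.77 ± 0.31) and the protease Afg3l2 (−1.12 ± 0.51).

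Regulators of mitochondrial gene expression were split, with 8 of 16 higher and 8 lower in each of the 3 comparisons. Tfb2m, a mitochondrial transcription factor, had 2517 and 1759 (normoglycemic), 1207 and 1057 (diabetic) and 1249 and 1217 (AAT-treated) (−0.86 ± 0.32 and, for AAT-treated against normoglycemic, −0.74 ± 0.32). Esrra, the estrogen-related receptor alpha, had 810 and 1105 in diabetic against 561 and 519 in normoglycemic and 596 and 546 in AAT-treated fat (0.73 ± 0.32 and −0.66 ± 0.32), with the diabetic arrays highest. Ppargc1b, a coactivator of that receptor, had 3188 and 1343 in diabetic, 769 and 593 in normoglycemic, and 927 and 111 in AAT-treated fat (1.52 ± 0.73 and −2.32 ± 0.73), and Polrmt, the mitochondrial RNA polymerase, was at 0.58 ± 0.32 in AAT-treated against normoglycemic fat. Nrf1 itself differed by 0.13 ± 0.43 between diabetic and normoglycemic fat. Of the carriers that feed and drain ATP synthase, Slc25a5, an ADP/ATP exchanger, was lowest in diabetic 1 and AAT-treated 1, with 9987 and 8486 (normoglycemic), 3756 and 5491 (diabetic) and 4803 and 9065 (AAT-treated) (−1.01 ± 0.41). Of the outer membrane channels Vdac2 was at −0.50 ± 0.31 and Vdac1 at 0.47 ± 0.31 for diabetic against normoglycemic fat, and Vdac3 at −0.23 ± 0.31 for AAT-treated against normoglycemic fat. The ATP synthase inhibitor gene Atpif1 had 2084 and 2281 (normoglycemic), 2143 and 2532 (diabetic) and 2625 and 3615 (AAT-treated), so that the AAT-treated arrays were highest (0.49 ± 0.32 against normoglycemic). By limma 0 genes of these lists passed the adjusted threshold in any comparison.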

How the data were processed

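Total RNA was labelled by the single-cycle protocol and hybridised to Affymetrix arrays. Each probe set has 1 deposited intensity, linear and not log-transformed, for which the submitters' processing notes name MAS5 without a version. The mean without the lowest and highest 2% was the same on every array. Of 45101 probe sets 34945 had 1 gene symbol in the platform annotation, and these were used. The pseudocount of 74 is the 25th percentile of all values, which understates differences of dim genes, and the filter of 164 is the 40th percentile of probe set means. Tests used limma 3.58.1 in R 4.3.3 (3 group means, eBayes with trend, 2-sided, 3 residual degrees of freedom, 5.37 prior ones). An exact permutation test of 2 arrays against 2 cannot go below 0.333, so none was run. The fit had little power in simulated data. Changes up or down were put into the diabetic group alone. Of genes changed by a factor of 2 the fit recovered 0.299% for diabetic against normoglycemic fat and 0% for AAT-treated against diabetic fat. The shares were 12.5% and 11% at a factor of 4, and 41.2% and 40% at a factor of 8. For AAT-treated against normoglycemic fat no change was simulated. The member of lowest difference in diabetic fat, Atp5c1, differed by a factor of 2.34. The counts of 0 past the adjusted threshold therefore cannot show that members were unchanged. Members, gene lists and tests were chosen with earlier results of these data known. The genes given in full are Cox5a, Atp5a1, Uqcrfs1, Cyc1, Cycs, the tissue-restricted forms, the c subunit genes, Atpif1 and, per complex and comparison, the 3 members of smallest p; of each pathway list, the 2 of smallest p per comparison. Marker genes were chosen after their values were seen. Atp5b, Atp5j, Atp5l, Cox7a2l, Uqcrc1, Uqcrc2, Atp5pb, Atp5h, Atp5e and Nrf1 were added after their values were seen. So were the counts against the beta-actin ratio. Alternatives were other pseudocounts and filters, quantile normalization, the mean over probe sets, robust eBayes, the replicate number as a block, only the groups compared, and each array left out. The number of arrays limits the precision.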

Additional observations from a re-analysis of the deposited data

How the results depend on the processing

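Among 30 members, 90 differences were recomputed. The 4 settings that can move a difference are both pseudocounts, quantile normalization and the mean over probe sets: of 360 values 11 had the opposite sign. The other 5 leave the differences as they are. Of 360 values without 1 array of the comparison itself 33 had the opposite sign, in 24 differences. The cause was not tested. By diabetic minus normoglycemic fat, quantile normalization gave Atp5g3 0.08 and Atp5h 0.09, and the mean over probe sets gave Atp5a1 −0.21, Cox7a2l −0.06, Uqcrc2 −0.27, Atp5pb −0.40 and a member median of −0.27. By AAT-treated minus diabetic fat the mean over probe sets gave Cox8c −0.02, Atp5o −0.21, Atp5pb 0.04 and Atp5h 0.31, and by AAT-treated minus normoglycemic fat quantile normalization gave Atp5a1 0.00.

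With 1 array left out, diabetic minus normoglycemic fat gave 0 to 5 lower members at an unadjusted p under 0.05 and a median of −0.23 to −0.08. Cox8b ranged from −1.83 to 0.02, Uqcr10 from −0.08 to 0.03, Uqcrc1 from −0.11 to 0.26, Uqcrc2 from −0.05 to 0.66, Atp5pb from −0.00 to 0.31 and Atp5h from −0.20 to 0.06. AAT-treated minus diabetic fat gave 0 to 3 higher and 0 to 4 lower members and a median of −0.33 to −0.10. Uqcrfs1 ranged from −0.11 to 0.37, Cox4i2 from −0.60 to 0.30, Cox6a2 from −1.15 to 0.05, Cox8b from −1.56 to 0.28, Cox8c from −0.12 to 0.21, Atp5o from −0.33 to 0.50 and Uqcrc1 from −0.18 to 0.19. AAT-treated minus normoglycemic fat gave 0 to 2 lower members and 0 to 3 genes past the adjusted threshold, the 3 without normoglycemic 2 being Ephx1, Myh11 and Phf3. Cox5a ranged from −0.65 to 0.28, Atp5a1 from −0.19 to 0.17, Cox6b2 from −0.43 to 0.23, Atp5g2 from −0.74 to 0.33, Uqcrh from −0.37 to 0.03, Uqcr11 from −0.61 to 0.12, Cox6b1 from −0.52 to 0.25, Atp5d from −0.49 to 0.20, Atp5b from −0.63 to 0.11, Atp5l from −0.09 to 0.10 and Uqcrc2 from −0.63 to 0.09. A lone array was assumed to vary like the other groups.

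In AAT-treated against diabetic fat, the single higher member at an unadjusted p under 0.05 became 0 with the filter at the 60th percentile, quantile normalization, the mean over probe sets and the 2 groups compared alone. The single lower member became 0 with no filter, the mean over probe sets and the 2 groups alone. With no filter 1 gene of all, Anp32a, passed the adjusted threshold. Same-numbered arrays did not deviate together from their group means (correlations of 0.075, −0.505 and −0.116). The −0.505 is between normoglycemic and AAT-treated arrays, where normoglycemic 1 deviated with AAT-treated 2. With 2 arrays per group the deviations mirror each other, so these correlations cannot settle whether the numbers pair the arrays. With the replicate number as a block, 0 higher and 0 lower members were at an unadjusted p under 0.05 in AAT-treated against diabetic fat, and limma called 0 genes in every comparison.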
